A study of Rattus norvegicus with 31 samples.

Results

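Iron is taken up, stored and exported by a small set of proteins, and 8 of the genes that encode them are described here in 2 rat tissues, the cortex of the kidney and the colon: Steap3, Tfrc, Slc40a1, Slc11a2, Fth1, Ftl1, Cybrd1 and Ireb2. They were chosen by symbol, with earlier results of these data known. All 8 are listed among the 20207 gene symbols of the deposited count table. The groups were rats on a high salt diet supplemented with calcitriol, which is the hormonal form of vitamin D (CAL), rats of the high salt model without it (HS), and normal controls (NC). The colon had 6 CAL, 5 HS and 5 NC libraries, and the cortex 6 CAL, 4 HS and 5 NC libraries, 31 in all. Strain, sex, age, salt content, calcitriol dose and duration are not given in the sources used here, and no group other than CAL is described as given calcitriol. Nothing in the labels says that the libraries of a group came from separate animals, or whether both tissues came from the same ones, so each p measures only the spread between these libraries, which may be technical.

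As background, most cells take up iron bound to transferrin. The transferrin receptor, made from Tfrc, carries it into endosomes, where the reductase Steap3 turns ferric into ferrous iron and the transporter Slc11a2 (DMT1) moves it into the cytosol. In the gut, Cybrd1 is a reductase of the brush border that prepares dietary iron for Slc11a2. Ferritin, built from heavy chains (Fth1) and light chains (Ftl1), stores iron inside the cell, and ferroportin (Slc40a1) is the exporter. Ireb2 makes an iron-regulatory protein that, when iron is scarce, binds ferritin messages and holds back their translation, and binds the Tfrc message and stabilises it.

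The libraries were shallow, and that decides which of these genes could be tested. Total counts ran from 289529 to 2265164 reads per cortex library and from 267976 to 918820 reads per colon library. Levels below are counts per 1e6 counts (CPM), scaled by the trimmed-mean (TMM) method over the genes tested. Levels are compared between groups for 1 gene and not between genes, since transcript lengths were not used. A low-count filter (edgeR, minimum count 10) kept Tfrc, Slc11a2, Cybrd1, Ftl1 and Steap3 in the colon and Tfrc, Slc11a2 and Ftl1 in the cortex. A count of 0 allows up to between 1.32 and 11.2 CPM in a single library, taking 3 counts as the limit, which covers counting error only.

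Colon HS replicate 3 stood apart from its label. Its small intestine markers (Fabp2, Apoa1, Fabp6 and others, 7 of 8 listed) summed to 19830 CPM, against 89.1 to 719 CPM in the other 15 colon libraries. Fxyd4, a regulator of the sodium pump found in the distal colon, was at 0 in that library and between 496 and 3043 CPM in the others. Summed B and plasma cell markers (6 genes) were at 1084, 1941 and 857 CPM in HS replicates 3, 4 and 5, against 92.1 to 671 CPM in the other colon libraries. Summed macrophage markers (12 genes) were at 4270, 2205 and 2509 CPM in the same 3 libraries, against 839 to 1866 CPM in the other colon libraries. For Steap3 and Tfrc, the colon differences that involve HS are also given without these libraries, an alternative that was chosen after seeing the data where all 3 are left out. In the cortex, proximal tubule markers (10 genes) summed to between 13060 and 17790 CPM, and to between 356 and 675 CPM in the colon. Surface colonocyte markers (10 genes) summed to between 9300 and 21100 CPM in the colon, and to between 313 and 448 CPM in the cortex. Smooth muscle markers (7 genes) summed to 3111 to 5720 CPM in CAL colon, 1867 to 23260 CPM in HS colon and 2691 to 15450 CPM in NC colon. The part of smooth muscle in the colon differences was not tested.

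Both genes best known for storage and export, Fth1 and Slc40a1, are listed at 0 nearly throughout. Fth1 had 0 reads in all 31 libraries, which over the pooled reads of a tissue would allow up to 0.351 CPM in the colon and 0.265 CPM in the cortex. Slc40a1 had 1 read in all, in colon HS replicate 2. These zeros are not read as absence of the transcript. Among the genes checked that every cell uses, Fau was also counted near 0. Hprt1 was low, with 11 reads in the colon and 21 in the cortex. The others among the deposited symbols had at least 222 reads in each tissue. Fau, a ribosomal protein gene, had 4 reads over the colon libraries and 1 over the cortex libraries, while Actb, the cytoplasmic actin gene, had 75118 and 33560 reads. In the RefSeq annotation of the GRCr8 assembly, Fth1 has 5 entries named as pseudogenes and 1 further protein-coding relative, and Ftl1 has 15 and 6. How reads that match several such copies were counted is not given in the sources used here, so the Ftl1 counts, 195 in the colon and 263 in the cortex, are uncertain as a measure of the whole ferritin light chain message. No comparison of Fth1 or Slc40a1 between groups was possible.

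In control animals, RNA levels of 4 members differed between colon and cortex, as did those of 58.8% of all genes tested. Steap3, Tfrc and Cybrd1 were higher in NC colon than in NC cortex, and Slc11a2 was lower. The test was the edgeR quasi-likelihood test with Benjamini-Hochberg adjustment over 9128 genes, fitted to all 6 groups. Of the 8 genes, 6 passed the low-count filter over both tissues, and 4 of those 6 passed the test at an adjusted p of 0.05, where 58.8% of all genes tested did so. Steap3 and Cybrd1 passed the filter of single tissues only in the colon, where they are high, so their count adds no support.

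Cybrd1, the brush border reductase, had 21, 22, 3, 12 and 19 reads in the 5 NC colon libraries, against 1, 0, 0, 0 and 0 reads in the 5 NC cortex libraries. Pooled over libraries, its share of reads was 93.9 times that of NC cortex, with an exact 95% counting interval of 16.4 to 3760. The fitted log2 difference of 5.67 (edgeR adjusted p = 2.645e-08) depends on the prior count, because the cortex side rests on 1 read. The groups did not overlap, as was the case for 47.9% of all genes tested.

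Steap3, the endosomal reductase, averaged 54.7 ± 9.68 CPM in NC colon and 9.002 ± 5.02 CPM in NC cortex (SD, n = 5 each, scaled over both tissues). The log2 difference was 2.64 (SE 0.44, edgeR adjusted p = 3.14e-06), with every NC colon library above every NC cortex library. Tfrc averaged 93.6 ± 27.6 CPM in NC colon and 41.0 ± 7.75 CPM in NC cortex, a log2 difference of 1.17 (SE 0.31, edgeR adjusted p = 0.00143), also without overlap. The same holds in the other direction for Slc11a2, the ferrous iron transporter, at 35.2 ± 8.998 CPM in NC colon and 81.3 ± 17.3 CPM in NC cortex. Its log2 difference was -1.21 (SE 0.23, edgeR adjusted p = 2.96e-05). Each colon library therefore held fewer Slc11a2 reads per Tfrc read: between 0.243 and 0.654 in NC colon, against 1.37 to 3.44 in NC cortex. This ratio is taken within a library and does not depend on the scaling between libraries.

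Ftl1 and Ireb2 did not differ detectably between the tissues of control animals. Ftl1 averaged 27.6 ± 6.49 CPM in NC colon and 26.7 ± 3.77 CPM in NC cortex (log2 difference 0.03, 95% interval -0.63 to 0.70, edgeR adjusted p = 0.939). Ireb2, the iron-regulatory protein gene, averaged 11.2 ± 6.54 CPM in NC colon and 6.49 ± 2.48 CPM in NC cortex (0.76, 95% interval -0.14 to 1.67, edgeR adjusted p = 0.155). With at most 12 Ireb2 reads in any of these 10 libraries, the interval is wide.

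**Figure D1:**
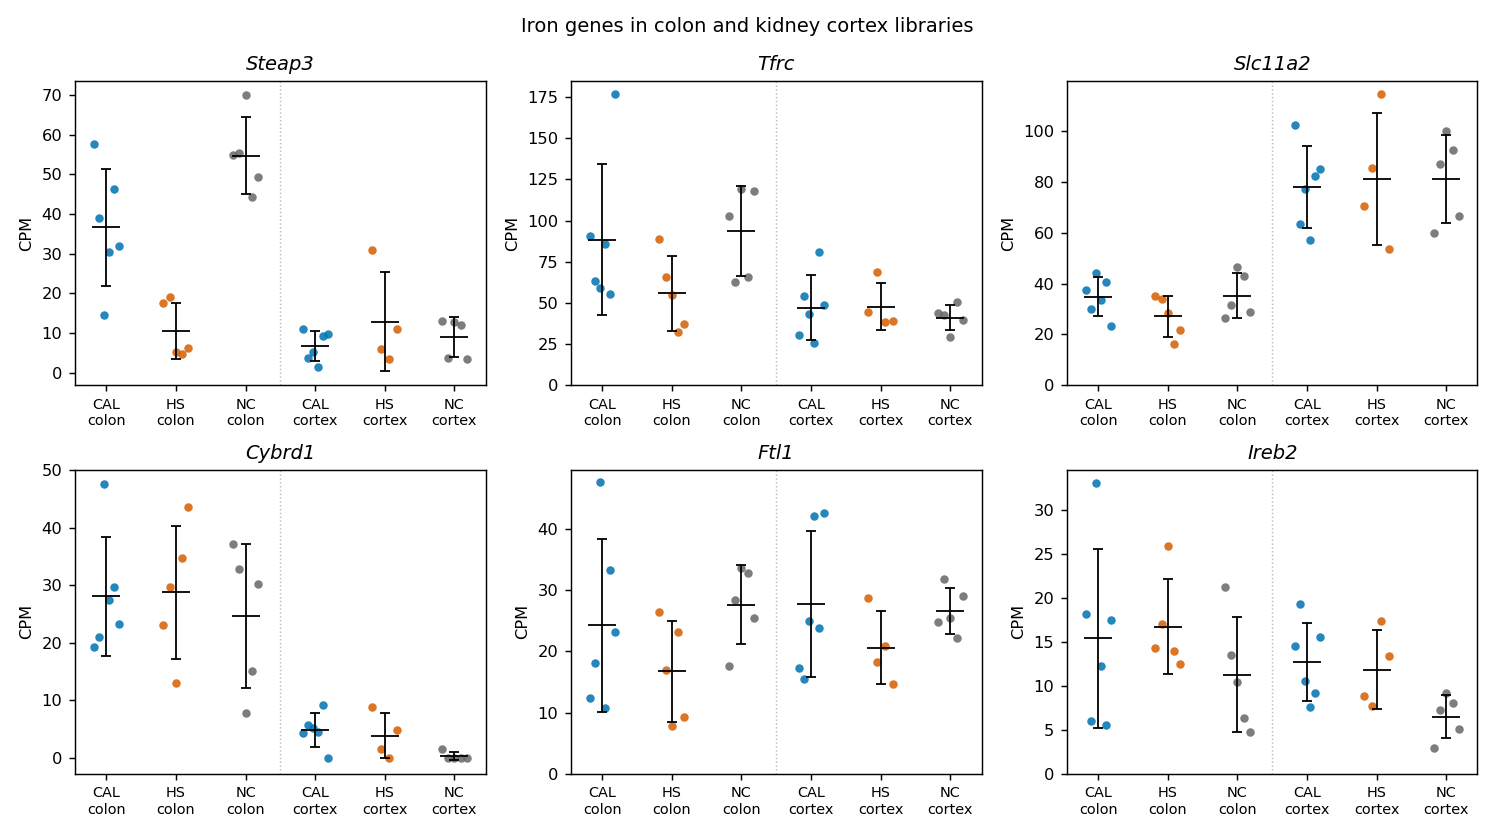
Level of 6 iron genes (counts per 1e6 counts, CPM, scaled over both tissues) in each library, as points, for CAL, HS and NC colon (left of the dotted line) and CAL, HS and NC cortex (right). Bars mark the mean and SD. Slc11a2 lies higher in all 3 cortex groups, and Steap3 in HS colon averages 10.54 CPM, near the cortex groups and below NC colon at 54.7 CPM.

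Ordered over all 6 groups, Slc11a2 was the gene that separated the tissues most plainly. Its group means were 81.3 CPM in NC cortex, 81.2 CPM in HS cortex and 78.1 CPM in CAL cortex, followed by 35.2, 34.8 and 27.1 CPM in NC, CAL and HS colon. Only the step between CAL cortex and NC colon was free of overlap. For Steap3 the order was NC colon (54.7 CPM), CAL colon (36.7 CPM), HS cortex (12.9 CPM), HS colon (10.54 CPM), NC cortex (9.002 CPM) and CAL cortex (6.76 CPM), and each neighbour in that order overlapped the next. HS colon is thus the 1 colon group whose Steap3 mean lay among the cortex groups. Tfrc ran from 93.6 CPM in NC colon to 41.0 CPM in NC cortex with the 3 colon groups above the 3 cortex groups, Cybrd1 likewise from 28.8 CPM in HS colon to 0.292 CPM in NC cortex, and every neighbour overlapped.

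In the colon, Steap3 was the member that set HS apart from NC. It had 16, 9, 2, 2 and 2 reads in the 5 HS libraries, against 31, 37, 27, 35 and 31 reads in the 5 NC libraries. Scaled, these were 18.2, 20.2, 5.53, 4.97 and 6.62 CPM in HS, against 57.2, 58.1, 74.5, 46.1 and 51.8 CPM in NC. All 5 HS values were under the lowest NC value, a pattern that 0.942% of the 7217 colon genes tested showed in this direction. The log2 difference was -2.22 (SE 0.38, 95% interval -2.96 to -1.47). Its unadjusted p of 9.16e-06 ranked 1 of 7217 genes, and its edgeR quasi-likelihood adjusted p was 0.0661, which does not pass the threshold of 0.05. The members were chosen with earlier results of these data known, so the rank is only descriptive. In bulk tissue, fewer cells of a type and less RNA per cell cannot be told apart.

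CAL colon lay between. Steap3 had 51, 13, 4, 20, 25 and 11 reads in the 6 CAL libraries, or 59.6, 40.4, 15.4, 31.3, 48.4 and 33.3 CPM. All but CAL replicate 3 were above the highest HS library, and 1 of the 6, replicate 1, was above the NC median. Between CAL and HS the log2 difference was 1.69 (SE 0.38, 95% interval 0.94 to 2.43), ranking 9 of 7217 genes by p, with an edgeR adjusted p of 0.165. Between CAL and NC it was -0.53 (SE 0.32, 95% interval -1.16 to 0.09, edgeR adjusted p = 0.9999). The comparisons of CAL with HS and of HS with NC share the HS libraries, so their opposite signs are not independent.

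The Steap3 difference between HS and NC stands near the threshold and moves across it with the processing. Its adjusted p was 0.00217 without a filter on low counts (16642 genes tested), 0.0415 with robust empirical Bayes and 0.0335 without CAL replicate 3, and it ran up to 0.274 (without NC replicate 3) with single colon libraries left out. For CAL against HS it was 0.0296 without the filter, up to 0.467 (without CAL replicate 5) with single libraries left out and 0.612 with only the compared groups. Without HS replicates 3 and 4 the log2 difference between HS and NC was -1.81 (edgeR adjusted p = 0.234), and without HS replicate 3 alone it was -2.06 (0.0798). Without HS replicates 3, 4 and 5, which leaves 2 HS libraries, it was -1.56 (edgeR adjusted p = 0.332). Between CAL and HS the log2 difference was 1.30 (edgeR adjusted p = 0.593) without HS replicates 3 and 4, and 1.07 (0.739) without replicates 3, 4 and 5. HS replicates 1 and 2, whose B and plasma cell markers (114 and 160 CPM) lay just under and within the NC range of 128 to 671 CPM, had 18.2 and 20.2 CPM of Steap3, below the lowest NC library at 46.1 CPM. Other markers set these 2 libraries apart. Their smooth muscle sums, 1867 and 23260 CPM, were the lowest and highest of the colon libraries. Their surface colonocyte sums were 15390 and 9431 CPM, and their erythrocyte sums 269 and 191 CPM. Summed surface colonocyte markers (10 genes) ran from 9300 to 15390 CPM in HS and from 13770 to 20020 CPM in NC. Erythrocyte markers (11 genes) summed to 254 to 1970 CPM in CAL colon, 67.3 to 402 CPM in HS colon and 454 to 2586 CPM in NC colon, so that all HS libraries were below all NC libraries, as for Steap3. The 3 erythrocyte genes tested in the colon had a median log2 difference of -2.59 between HS and NC and 2.01 between CAL and HS, and none of them passed edgeR. The part of these cell types in the Steap3 differences was not tested. Relative to Tfrc within the same library, Steap3 had 0.0952 to 0.290 reads per Tfrc read in HS colon, against 0.419 to 0.881 in NC colon.

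**Figure D2:**
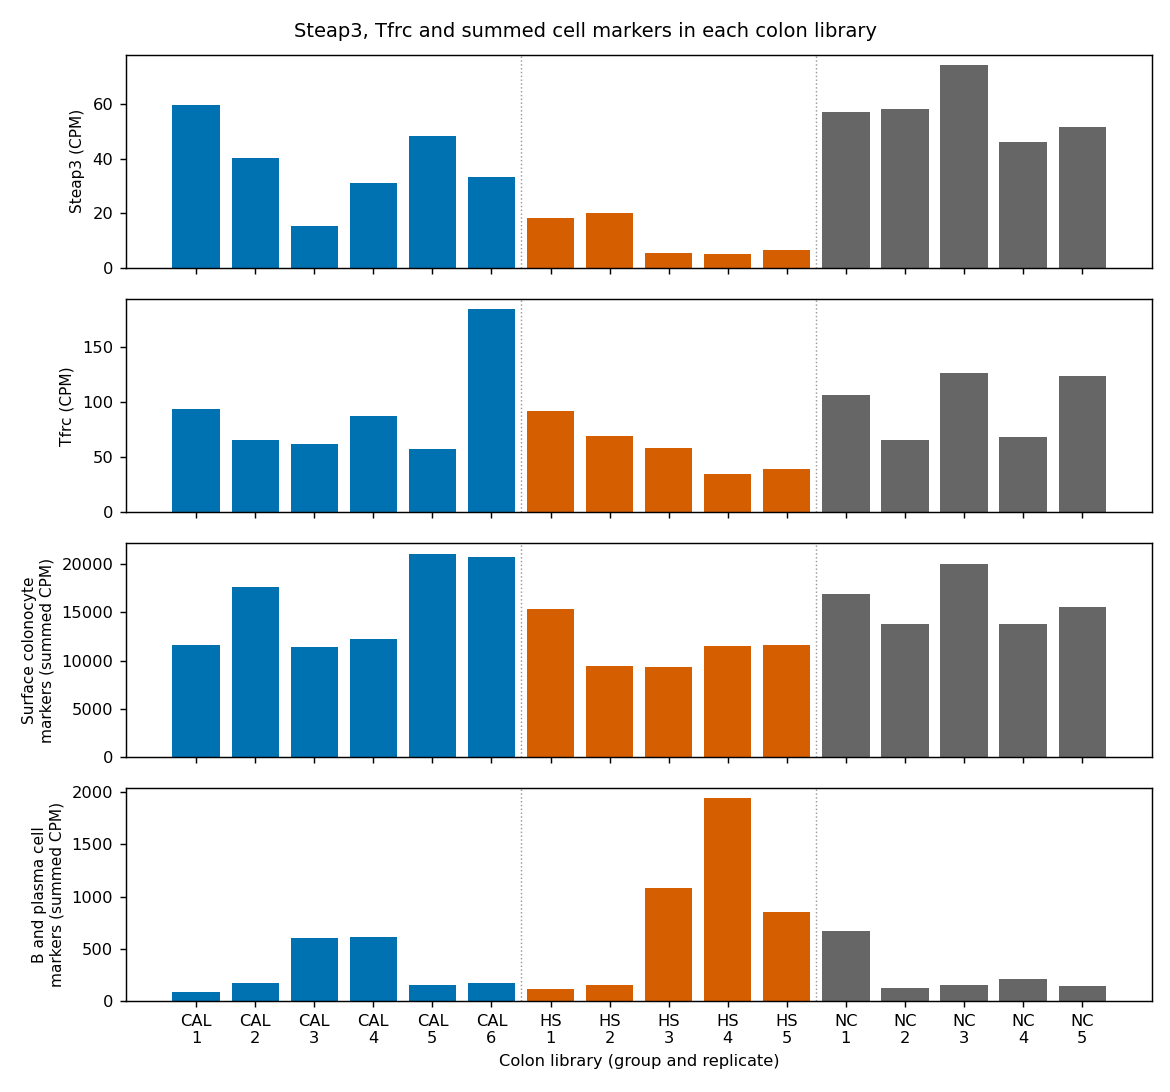
Steap3 and Tfrc (CPM, scaled over colon libraries) and the summed CPM of surface colonocyte and of B and plasma cell markers in each colon library, as bars for CAL, HS and NC from left to right. Steap3 is at most 20.2 CPM in HS and at least 46.1 CPM in NC, while the B and plasma cell sum is at least 857 CPM in HS replicates 3, 4 and 5 and at most 671 CPM in every other library.

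The promoters of Steap3 and of Tfrc, its partner in the transferrin cycle, are shown because these are the 2 members with an unadjusted p under 0.05 between HS and NC colon. Of the 8 genes, 6 matched the RefSeq promoter table of GRCr8. The 250 bases before each annotated start follow, 5′ to 3′ on the minus strand for both genes. Capitals mark ACGTG and GGGCGG, the GC box core, searched on both strands. ACGTG is 1 form of the core bound by hypoxia-inducible factors, and other forms were not searched.
Steap3, chr13:33944357-33944606: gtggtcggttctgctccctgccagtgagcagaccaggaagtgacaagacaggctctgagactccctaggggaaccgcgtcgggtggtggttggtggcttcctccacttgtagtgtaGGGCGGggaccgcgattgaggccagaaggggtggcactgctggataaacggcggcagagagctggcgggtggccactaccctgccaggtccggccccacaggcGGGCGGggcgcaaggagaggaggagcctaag
Tfrc, chr11:81690319-81690568: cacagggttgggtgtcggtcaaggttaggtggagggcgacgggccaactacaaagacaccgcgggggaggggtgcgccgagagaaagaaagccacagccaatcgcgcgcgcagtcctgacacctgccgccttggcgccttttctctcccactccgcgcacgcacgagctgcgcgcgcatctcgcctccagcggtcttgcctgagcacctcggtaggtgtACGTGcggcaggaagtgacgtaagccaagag
Tfrc held 1 ACGTG, beginning 31 bases before its start, and no GGGCGG, while Steap3 held 2 GGGCGG, beginning 134 and 31 bases before its start, and no ACGTG. Of all 33469 promoter windows of this length, 16.6% held ACGTG and 30.5% held GGGCGG. The DR3 vitamin D response element, the direct repeat bound by the vitamin D receptor, was in neither window and in 0.0926% of all windows. A match is only a match of letters and says nothing about binding in these tissues.

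Tfrc in the colon had the same order of groups as Steap3 with a smaller spread of means. It was at 91.9, 69.6, 58.1, 34.8 and 39.7 CPM in HS, against 107, 66.0, 126.9, 68.5 and 123.6 CPM in NC. HS replicates 3, 4 and 5 were below every NC library, and HS replicates 1 and 2 lay within the NC range. The log2 difference was -0.69 (SE 0.33, 95% interval -1.34 to -0.04), with an unadjusted p of 0.0489 and an edgeR adjusted p of 0.582. Without HS replicates 3 and 4 it was -0.47 (edgeR adjusted p = 0.881), and without replicates 3, 4 and 5 it was -0.24 (0.943). The CAL libraries held 93.4, 65.3, 61.8, 87.6, 58.0 and 184.5 CPM, so that replicate 6 was above every other colon library. Between CAL and HS the log2 difference was 0.60 (SE 0.32, edgeR adjusted p = 0.533), 0.30 without CAL replicate 6, 0.39 without HS replicates 3 and 4, and 0.17 without HS replicates 3, 4 and 5.

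The other colon members overlapped between all groups. Slc11a2 averaged 36.2 ± 8.01 CPM in CAL, 28.6 ± 8.24 CPM in HS and 37.0 ± 9.63 CPM in NC (n = 6, 5 and 5), with a log2 difference of -0.33 between HS and NC (95% interval -0.89 to 0.23, edgeR adjusted p = 0.800). Ftl1, the ferritin light chain, averaged 25.3 ± 14.9 CPM in CAL, 17.7 ± 8.52 CPM in HS and 29.0 ± 6.92 CPM in NC, with -0.63 between HS and NC (95% interval -1.44 to 0.18, edgeR adjusted p = 0.712). Cybrd1 averaged 29.2 ± 11.1 CPM in CAL, 30.5 ± 12.5 CPM in HS and 25.8 ± 13.1 CPM in NC, with 0.19 between HS and NC (95% interval -0.57 to 0.95, edgeR adjusted p = 0.948). For Cybrd1 the HS range of 13.8 to 46.4 CPM and the NC range of 8.27 to 38.7 CPM lay largely over each other.

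None of the 5 colon members that were tested passed edgeR between HS and NC, where 0% of all 7217 genes did. Counted by unadjusted p under 0.05, 2 of the 5 members and 614 of all genes (8.51%) would pass. DESeq2 gave 9 genes, with no adjusted p for any member but Tfrc (0.549), since its filter on mean counts took out the others, Steap3 among them (log2 difference -2.23, SE 0.42, unadjusted p = 1.26e-07). The median log2 difference of the 5 members was -0.63, beside 0.04 for all genes tested. Between CAL and HS, none of the 5 passed edgeR, where 0.0139% of genes did, and 1 of the 5 had an unadjusted p under 0.05, as did 10.5% of all genes. DESeq2 gave 8 genes, again with an adjusted p for Tfrc alone (0.410), and the members' median was 0.35, beside -0.03 for all genes. Between CAL and NC none passed, where 0% of genes did by edgeR and none did by DESeq2. An unadjusted p under 0.05 was found for 278 genes (3.85%) and no member, and the members' median was -0.09.

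Ireb2 did not pass the colon filter. Its counts were 16, 2, 9, 8, 3 and 6 in CAL, 13, 8, 10, 6 and 4 in HS and 12, 9, 4, 5 and 3 in NC. Fitted without the filter, the log2 difference between HS and NC was 0.56 (SE 0.51, edgeR adjusted p = 0.708), and between CAL and HS it was -0.15 (SE 0.49, edgeR adjusted p = 1). The groups overlapped, and a difference of this size was not detectable at this depth.

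**Figure D3:**
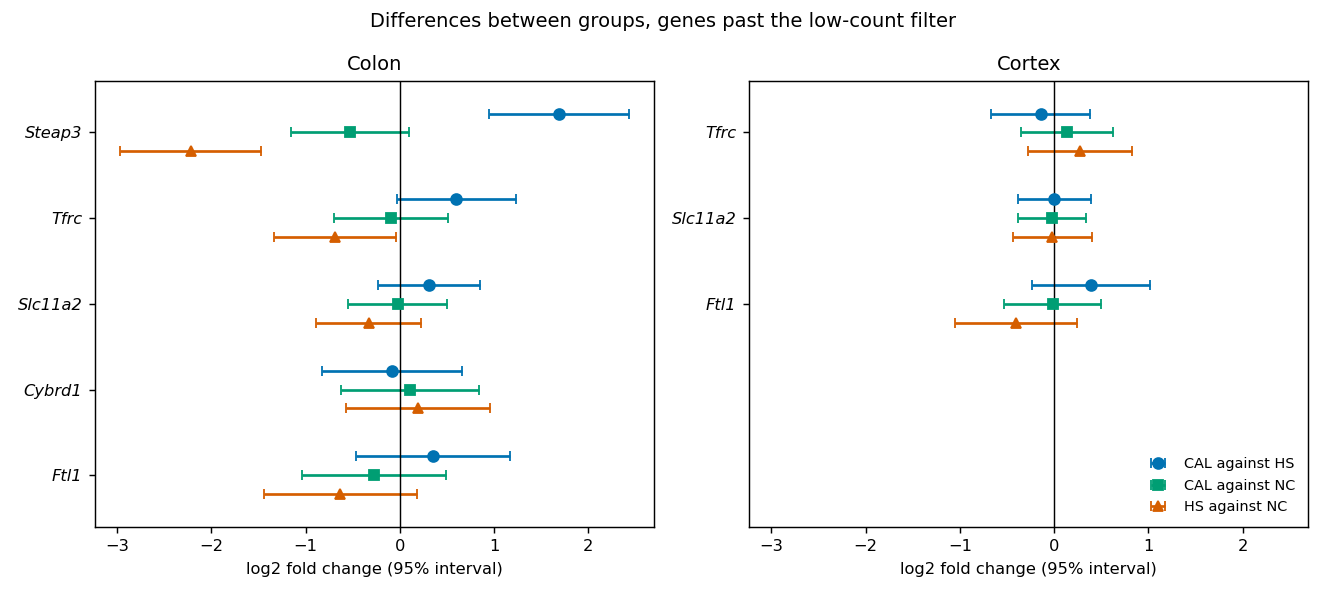
Log2 difference between groups for members past the low-count filter in the colon (left) and the cortex (right), with 95% intervals as bars. Circles are CAL against HS, squares CAL against NC and triangles HS against NC. Steap3 in the colon has intervals clear of 0 for 2 of its 3 comparisons (-2.96 to -1.47 and 0.94 to 2.43), neither with an adjusted p under 0.05.

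In the kidney cortex, none of the 3 members past the filter passed edgeR between HS and NC, where 11.0% of all 7524 genes tested did. At that share, the lack of a call among 3 genes says little about them, and the intervals below leave room for changes. None of the 3 had an unadjusted p under 0.05, where 27.3% of all genes did, and DESeq2 called none of them. Tfrc was at 44.3, 68.7, 38.6 and 38.2 CPM in HS, against 42.5, 39.9, 28.8, 49.3 and 38.4 CPM in NC. The groups overlapped apart from HS replicate 2, which was above all NC libraries (log2 difference 0.28, 95% interval -0.27 to 0.83, edgeR adjusted p = 0.551). Slc11a2, the most precisely measured of the 3, averaged 81.1 ± 26.7 CPM in HS (n = 4) and 78.9 ± 17.1 CPM in NC (n = 5). Its log2 difference was -0.02 (95% interval -0.44 to 0.40, edgeR adjusted p = 0.966). Ftl1 averaged 20.6 ± 6.12 CPM in HS and 25.8 ± 3.25 CPM in NC (log2 difference -0.41, 95% interval -1.06 to 0.25, edgeR adjusted p = 0.446).

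With calcitriol added, the cortex values of these 3 genes overlapped those of both other groups. CAL averaged 46.0 ± 19.1 CPM for Tfrc, 76.1 ± 14.4 CPM for Slc11a2 and 27.2 ± 12.0 CPM for Ftl1 (n = 6). Against HS the log2 differences were -0.14 for Tfrc (edgeR adjusted p = 0.841), 0.00385 for Slc11a2 (0.998) and 0.39 for Ftl1 (0.599), where 0.758% of all genes passed. Against NC they were 0.13, -0.02 and -0.01 (edgeR adjusted p = 0.866, 0.983 and 0.992), where 0% of genes passed, 892 (11.9%) were at an unadjusted p under 0.05 and DESeq2 gave 13. None of the 3 was at an unadjusted p under 0.05 in either comparison, where 16.2% of genes were so between CAL and HS, and DESeq2 called none of them, though it gave Ftl1 no adjusted p between CAL and HS.

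The other cortex members were at the limit of counting. Cybrd1 had 9, 3, 4, 3, 5 and 0 reads in CAL, 4, 1, 0 and 4 reads in HS and 1, 0, 0, 0 and 0 reads in NC. At least 1 read was present in 5 of 6 CAL, 3 of 4 HS and 1 of 5 NC libraries. Pooled, its share of reads in HS was 14.4 times that in NC (exact 95% counting interval 2 to 631), and in CAL 16.4 times that in NC (2.68 to 676). Those intervals cover counting error only. Fitted without the filter over 15426 genes, the edgeR adjusted p was 0.0694 for HS against NC and 0.0848 for CAL against NC, so neither passed. Between CAL and HS the pooled ratio was 1.14 (0.512 to 2.79).

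Ireb2 in the cortex had 30, 10, 8, 5, 5 and 8 reads in CAL, 4, 5, 5 and 11 in HS and 2, 8, 5, 4 and 3 in NC, or 12.5 ± 4.43, 11.8 ± 4.49 and 6.30 ± 2.44 CPM. The ranges overlapped. Without the filter the log2 difference was 0.98 (SE 0.42, unadjusted p = 0.0215, edgeR adjusted p = 0.450) for CAL against NC and 0.83 (SE 0.49, edgeR adjusted p = 0.401) for HS against NC. Steap3 in the cortex averaged 6.55 ± 3.58 CPM in CAL, 12.9 ± 12.5 CPM in HS and 8.78 ± 4.96 CPM in NC. HS replicate 1, at 31.03 CPM, was above all other cortex libraries, and without the filter the log2 difference between HS and NC was 0.62 (SE 0.51, edgeR adjusted p = 0.558).

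In the test of the difference between tissues, Steap3 had the smallest p among the members. Steap3 and Cybrd1 passed the filter of single tissues only in the colon, where they are high, so this order adds no support. The cortex side of Steap3 rests on 28 reads in HS (1 to 14 per library) and 28 in NC (2 to 9 per library). The HS effect in the colon minus that in the cortex was -2.79 on the log2 scale (SE 0.70, 95% interval -4.16 to -1.43), ranking 33 of 9128 genes by p, with an edgeR adjusted p of 0.0829. It passed without colon HS replicate 1 (-3.12, edgeR adjusted p = 0.0302) and in no other of 39 alternatives. Its weakest value was -2.08 (0.296) without cortex HS replicate 1, the library with the highest cortex Steap3. Without colon HS replicates 3 and 4 it was -2.42 (edgeR adjusted p = 0.277), and without replicates 3, 4 and 5 it was -2.17 (0.293). For CAL against HS the difference between tissues was 2.52 (SE 0.68, edgeR adjusted p = 0.185), 2.13 (0.680) without colon HS replicates 3 and 4 and 1.87 (0.656) without replicates 3, 4 and 5. For Tfrc it was -0.91 for HS against NC (SE 0.46, edgeR adjusted p = 0.388), or -0.48 (0.800) without colon HS replicates 3, 4 and 5, and for Cybrd1 -2.92 (SE 1.07, edgeR adjusted p = 0.228), which rests on the single NC cortex read. None of the 6 members tested passed in either comparison, where 0.0219% of genes passed for HS against NC and 0% for CAL against HS. By unadjusted p under 0.05, 2 of the 6 members and 1226 genes (13.4%) would pass for HS against NC, and 1 member and 878 genes (9.62%) for CAL against HS. The members were Steap3 and Cybrd1 for HS against NC and Steap3 for CAL against HS, both kept by the filter through the colon, so these counts add no support. DESeq2 gave 58 genes for HS against NC and 11 for CAL against HS, none of them a member, with an adjusted p for Tfrc and Slc11a2 alone.

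Beyond the 8 members, 73 other genes of iron handling were listed by role, also with earlier results of these data known. Of these, 71 are among the deposited symbols, 48 passed the filter in the cortex and 41 in the colon. Between HS and NC cortex, 6 rose and 2 fell, where 7.35% of all genes rose and 3.69% fell. Their median was 0.04, beside -0.01 for all genes tested. No listed gene passed edgeR or DESeq2 in the colon. Of the 41 tested there, 3 had an unadjusted p under 0.05 for CAL against HS (10.5% of all genes did), 1 for CAL against NC (3.85%) and 5 for HS against NC (8.51%). In the cortex none passed either tool for CAL against NC. Of the 48 tested there, 7 had an unadjusted p under 0.05 for CAL against HS (16.2% of all genes did), 7 for CAL against NC (11.9%) and 17 for HS against NC (27.3%).

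Ncoa4, the receptor that delivers ferritin to autophagy for iron release, had the smallest p of the list in HS cortex. It was at 784.7, 711, 595.9 and 775.7 CPM in HS, against 467.8, 514, 363.7, 404.1 and 447 CPM in NC. The HS libraries were thus all higher than the NC libraries, as for 7.44% of all genes. The log2 rise was 0.71 (SE 0.12, edgeR adjusted p = 0.00119) and passed with each cortex library left out. In CAL it was at 454.6 to 586.6 CPM, below every HS library (a pattern of 2.30% of genes in this direction), and it fell by 0.51 on the log2 scale against HS (SE 0.12, edgeR adjusted p = 0.0394). It was the 1 listed gene past the threshold between CAL and HS cortex, where 0.492% of genes were lower, and that call was lost without any 1 of HS replicates 1, 2 or 4 or CAL replicates 1, 2, 4 or 6 (adjusted p up to 0.157). In the colon Ncoa4 did not pass (0.14 between HS and NC, edgeR adjusted p = 0.916), and the difference between tissues was -0.54 (SE 0.25, edgeR adjusted p = 0.341).

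Of the 6 genes of the hypoxia list that were tested, 3 rose in HS cortex, where 7.35% of all genes rose. Epas1 (log2 difference 0.02), Egln3 (0.02) and Vegfa (0.47) of that list did not pass (edgeR adjusted p = 0.959, 0.990 and 0.293). These were named after their values were seen. Bnip3, a mitophagy receptor induced by low oxygen, averaged 243.9 ± 52.3 CPM in HS and 138.8 ± 21.2 CPM in NC (log2 difference 0.82, SE 0.16, edgeR adjusted p = 0.00382), and Ankrd37, another hypoxia-induced gene, 45.0 ± 9.30 CPM in HS and 16.1 ± 9.90 CPM in NC (1.40, SE 0.33, edgeR adjusted p = 0.0111). Both passed with each cortex library left out. For Bnip3 the groups overlapped, with HS replicate 3 (168.3 CPM) below NC replicate 2 (172.5 CPM). For Ankrd37 they did not, as for 7.44% of all genes in this direction. Of the 8 tested genes of plasma transport and uptake, 1 rose: Steap2, a relative of Steap3, at 125.2 ± 23.8 CPM in HS and 77.9 ± 14.0 CPM in NC (0.70, SE 0.20, edgeR adjusted p = 0.0295, lost without any 1 of HS replicates 1, 2 or 4 or NC replicates 1 or 3, up to 0.0993). Its groups also overlapped, with HS replicate 3 (91.14 CPM) below NC replicate 2 (91.75 CPM). Of the 18 tested genes of mitochondrial iron and iron-sulphur clusters, Glrx3, a cytosolic iron-sulphur cluster carrier, rose (0.44, SE 0.13, edgeR adjusted p = 0.0309, lost without any 1 of HS replicates 1 or 2 or NC replicates 1, 4 or 5, up to 0.0991). Abcb10, a mitochondrial transporter needed for haem synthesis in red cell precursors, fell in HS, at 24.7 ± 2.74 CPM against 44.2 ± 7.01 CPM in NC (-0.86, SE 0.22, edgeR adjusted p = 0.0166, and 0.0665 without HS replicate 2). Erythrocyte markers (11 genes) summed to 3667 to 6836 CPM in CAL cortex, 1018 to 1816 CPM in HS cortex and 3900 to 19870 CPM in NC cortex, and their part in these differences was not tested. The remaining calls, of genes beyond the 6 with the smallest p and named after their values were seen, were Hif1a, an oxygen-sensing transcription factor, which rose (0.51, edgeR adjusted p = 0.0334), and Id1, which fell (-1.06, edgeR adjusted p = 0.0457). None of the 8 tested haem handling genes and none of the 4 of the iron-regulatory proteins and their degradation passed edgeR between HS and NC cortex. Of all genes tested, 11.0% did.

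**Figure D4:**
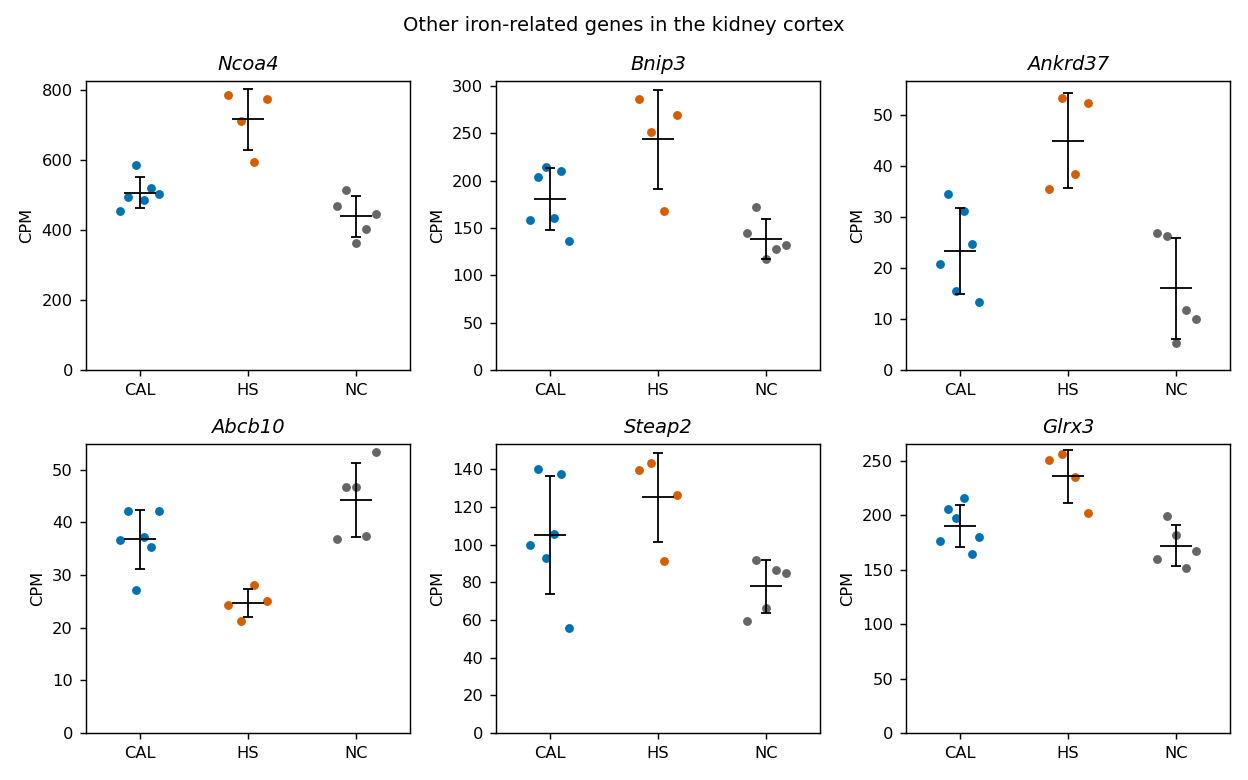
Level (CPM, scaled over cortex libraries) of the 6 other iron-related genes with the smallest p between HS and NC cortex, in each CAL, HS and NC library, with the mean and SD as bars. Ncoa4 is between 595.9 and 784.7 CPM in HS, above all CAL and NC libraries, and Abcb10 averages 24.7 CPM in HS and 44.2 CPM in NC.

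Between the control tissues, 8 of the 52 other iron genes tested were higher in colon and 29 lower, where 30.4% of all genes were higher and 28.4% lower. The 6 with the smallest p were Lrp2, Cubn, Blvra, Heph, Id1 and Steap2. Lrp2 and Cubn, the receptors by which the proximal tubule takes up filtered proteins including transferrin, had 26 and 3 reads over the NC colon libraries and 5621 and 824 over the NC cortex libraries. Heph, the ferroxidase that works with ferroportin at the basal side of the gut epithelium, averaged 115.7 ± 28.8 CPM in NC colon and 4.14 ± 2.39 CPM in NC cortex, scaled over both tissues (log2 difference 4.83, SE 0.44, edgeR adjusted p = 1.37e-11). Id1, a target of the signalling that controls hepcidin in liver, was higher in NC colon by 3.56 (SE 0.33, edgeR adjusted p = 1.96e-11). Blvra, a biliverdin reductase, was lower in NC colon by a log2 difference of -3.28 (SE 0.27, edgeR adjusted p = 1.39e-12), and Steap2 by -4.52 (SE 0.48, edgeR adjusted p = 3.71e-10).

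The genes whose levels ordered the libraries most like Tfrc, by Spearman rho over all libraries of a tissue, were Ercc5, Dap and Ctf1 in the cortex (0.789, 0.707 and 0.696 over 15 libraries) and Pdzd8, Nbeal1 and Nfat5 in the colon (0.83, 0.785 and 0.771 over 16 libraries). For Steap3 in the colon, added after its values were seen, they were Nlrc4, Crebrf and Adora2b (0.862, 0.859 and 0.841 over 16 libraries). Those for Slc11a2, likewise added, were Prim2, Tspan18 and Cndp1 in the cortex (0.825, 0.804 and 0.786) and Sppl2b, Dera and B4galt7 in the colon (0.856, 0.835 and 0.794). These values describe these libraries, which share groups and depth. They were picked as the highest among all tested genes over few libraries. Whether unrelated genes would reach such values was not tested.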

How the data were processed

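The 8 genes and all lists were chosen with earlier results of these data known. Per the labels' protocols, TRIzol was used for total RNA and a TruePrep kit for the cDNA libraries. Per the submitters' processing notes, FastQC 0.11.9, Trimmomatic 0.39, HISAT2 2.1.0 and featureCounts 1.6.5 were used with build Rnor_6.0. The deposited values are counts, whole reads per gene symbol and library, with no normalisation. The annotation, strand setting and handling of reads that match several places are not given in the sources used here.

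The quasi-likelihood test of edgeR 4.0.16 (R 4.3.3) was run after TMM scaling and the edgeR low-count filter (minimum count 10, minimum total 15), in 1 fit per tissue over 3 groups, and in 1 fit of 6 groups for comparisons between tissues. Adjusted p are Benjamini-Hochberg values over all genes tested. SE come from the quasi-likelihood F. The test was also run on simulated counts, with planted changes and a spread that followed the trend with mean level. Those counts held no outlying library and no other difference between groups or tissues. They therefore do not check the results for these libraries. Alternatives were DESeq2 1.42.0, its size factors, 2 other filters, robust empirical Bayes, the replicate number as a block, the compared groups alone, no erythrocyte genes, and libraries left out, of which the fit without HS colon replicates 3, 4 and 5 was added after the data were seen. Of 465 pairs of libraries, 0 held identical counts.

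Named in the text are the 8 genes, up to 6 other listed iron genes past the threshold per comparison by smallest p, and the 3 genes most like Tfrc by Spearman rho of log2(CPM + 1). Fth1 and Slc40a1, also under that rule, could not be ranked, and Steap3 and Slc11a2 were added to it after the data were seen. Marker sums are plain CPM of all counts. Snx3, Pcbp1, Sis and Muc2 were listed and not analysed here.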

Additional observations from a re-analysis of the deposited data

Results flagged for a closer look

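In 4 of the 55 groups of libraries examined gene by gene, 1 library lay far from the rest of its group. The rule flags about 1 in 20 groups of normally distributed values, a rate that does not apply to counts near 0. Tfrc in colon CAL replicate 6 was at 184.5 CPM (61 reads), with the other CAL libraries between 58.0 and 93.4 CPM. Cybrd1 in colon CAL replicate 3 was at 50.2 CPM (13 reads), with the others between 19.9 and 30.95 CPM. The remaining 2 rest on 1 read each: Slc40a1 in colon HS replicate 2 (2.24 CPM) and Cybrd1 in cortex NC replicate 1 (1.42 CPM). Every other library of those groups had 0, so the rule had to flag them.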

How the results depend on the processing

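Over the members and named genes, 1700 values were recomputed: 1611 kept their direction and side of the threshold, 25 lost a call, 5 gained one and 59 changed sign. Refits that gave no adjusted p, as DESeq2 did for Steap3 between HS and NC colon, are not among them. The lost calls all fell on cortex results with 23 refits each. They were Ncoa4 between CAL and HS (11 lost) and, between HS and NC, Glrx3 (8), Steap2 (5) and Abcb10 (1). Those that changed sign were small differences that passed no test, and for all of them the cause was not tested. Counts of genes past an adjusted p of 0.05 moved more. Without a filter they were 128 for CAL against HS, 83 for CAL against NC in the cortex, 59 for HS against NC, 66 for CAL against HS and 1 for CAL against NC in the colon, and, between tissues, 20 for HS against NC and 8 for CAL against HS. With a 1 CPM filter they were 7 (CAL against NC, cortex), 5 (CAL against HS, colon) and 0 (HS against NC, between tissues). With robust empirical Bayes they were 2 (CAL against NC, cortex), 1 (HS against NC, colon) and 2 (CAL against HS, colon). With only the compared groups they were 30 (CAL against HS, cortex) and 2 (CAL against NC, colon), and without erythrocyte genes 33 (CAL against HS, cortex). Without HS colon replicates 3 and 4 they were 1 (HS against NC, colon), 0 (CAL against HS, colon) and 0 (HS against NC, between tissues). Without HS colon replicates 3, 4 and 5, chosen after seeing the data, they were 1 (HS against NC, colon), 2 (CAL against NC, colon) and 0 (HS against NC, between tissues). DESeq2 gave 97 (CAL against HS, cortex), 13 (CAL against NC, cortex), 9 (HS against NC, colon), 8 (CAL against HS, colon), 58 (HS against NC, between tissues) and 11 (CAL against HS, between tissues). With single libraries left out, the counts were 324 to 961 (HS against NC, cortex; lowest without HS replicate 2), 2 to 80 (CAL against HS, cortex; lowest without HS replicate 2), 0 to 40 (CAL against NC, cortex), 0 to 1 (HS against NC, colon), 0 to 14 (CAL against HS, colon), 0 to 93 (HS against NC, between tissues), 0 to 54 (CAL against HS, between tissues) and 5047 to 5466 (NC colon against NC cortex).

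Within a tissue, same-numbered libraries of different groups correlated between -0.158 and 0.0675 in the cortex (13 pairs). In the colon they correlated between -0.228 and 0.245 (15 pairs). Pairs with different numbers ranged from -0.213 to 0.173 (cortex, 61 pairs) and from -0.235 to 0.26 (colon, 70 pairs). The ranges lay over each other, so these values do not show whether replicate numbers pair the libraries. Pairing of same-numbered cortex and colon libraries was not tested, and the fits between tissues treated them as independent. With the replicate number as a block the counts were 22 (CAL against HS, cortex), 42 (CAL against NC, cortex) and 0 (CAL against HS, colon), and the log2 difference of Slc11a2 was -0.0157 (CAL against HS, cortex) and 0.0687 (CAL against NC, colon). Under that block the edgeR adjusted p of Steap3 between HS and NC colon was 0.0631, of Glrx3 between HS and NC cortex 0.0507 and of Ncoa4 between CAL and HS cortex 0.101. Ncoa4 also lost that call with a 1 CPM filter (0.0617), with only the compared groups (0.0634) and without erythrocyte genes (0.0524), and Glrx3 without a filter (0.0811) and with a 1 CPM filter (0.0695).

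Other log2 differences that changed sign were those of Ftl1 between NC colon and NC cortex, at -0.00376 with DESeq2 size factors, -0.0388 with a 1 CPM filter and -0.00313 by DESeq2. DESeq2 also gave -0.00688 (Slc11a2, CAL against HS, cortex), 0.00223 (Slc11a2, CAL against NC, colon) and 0.0178 (Ftl1, CAL against NC, cortex). Without HS colon replicates 3, 4 and 5 the values that changed sign were 0.0671 (Cybrd1, CAL against HS, colon), 0.11 (Ftl1, HS against NC, between tissues), 0.0157 (Slc11a2, HS against NC, between tissues) and -0.00725 (Slc11a2, CAL against HS, between tissues). With single libraries left out, the ranges that crossed 0 were -0.18 to 0.18 (Slc11a2, HS against NC, cortex), -0.20 to 0.17 (Slc11a2, CAL against HS, cortex), -0.36 to 0.11 (Tfrc, CAL against HS, cortex), -0.19 to 0.17 (Ftl1, CAL against NC, cortex), -0.13 to 0.0704 (Slc11a2, CAL against NC, cortex), -0.0724 to 0.29 (Tfrc, CAL against NC, cortex), -0.47 to 0.13 (Ireb2, HS against NC, between tissues), -0.81 to 0.0345 (Cybrd1, CAL against HS, between tissues), -0.33 to 0.17 (Ftl1, CAL against HS, between tissues), -0.0547 to 0.15 (Ftl1, NC colon against NC cortex), -0.00255 to 0.37 (Cybrd1, HS against NC, colon), -0.26 to 0.10 (Cybrd1, CAL against HS, colon), -0.0762 to 0.29 (Cybrd1, CAL against NC, colon), -0.10 to 0.0884 (Slc11a2, CAL against NC, colon) and -0.39 to 0.0209 (Tfrc, CAL against NC, colon).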
